A study of Mus musculus with 13 samples.

Results

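Tissue kallikreins are secreted trypsin- or chymotrypsin-like serine proteases, and 8 of their genes were followed here in EPLMs, sorted bone marrow progenitors of the mouse that can still give rise to lymphoid and myeloid cells: Klk1, Klk1b1, Klk1b3, Klk1b5, Klk1b11, Klk1b22, Klk1b27 and Klk8. Every probe set that the array annotation assigns to exactly 1 of these symbols was taken, which gave 10 probe sets for 6 of the 8 genes, out of 45037 probe sets on the array. Klk1b22 was measured only by a probe set shared with Klk1b9, and Klk1b3 had no probe set. The genes were chosen with their difference between transgenic and wild type EPLMs already known, so the values of that contrast are given for them as a description, with standard errors and no test.

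The array series compared BCS mice, which carry the Eμ-VH-OBF1 transgene, with wild type (WT) littermates. OBF1 is a transcriptional coactivator that binds Oct1 and Oct2 on octamer-containing promoters and is encoded in the mouse by Pou2af1. The transgene is an HA-tagged human OBF1 cDNA that yields the nuclear p34 isoform, driven by the mouse Eμ enhancer and a VH promoter, a combination that is active early in the B lineage and can also be active in T cells. EPLMs were sorted from the bone marrow of mice 7 weeks old, bred on a mixed B6CF1 and C57BL/6 background, with a gate that included B220+, c-kit+, CD93+ and NK1.1-. There were 3 WT and 3 BCS mice, 1 mouse per array and none pooled, and which transgenic line was hybridized is not given in the sources used here. Intensities of Pou2af1 were 6278, 7250 and 3400 in WT 1, 2 and 3 and 10784, 10858 and 10323 in BCS 1, 2 and 3, so the genotypes did not overlap. How far its probes also read the human transgene was not tested. By qPCR the paper could not detect endogenous OBF1 RNA in WT EPLMs and found it robustly raised in BCS EPLMs. The WT array values lay far above the array median of 20, and why the 2 methods differ there was not tested. Of the genes behind the gate, Ptprc, whose product carries the B220 epitope, fell by 0.40 on the log2 scale in BCS EPLMs (adjusted p = 0.0101, limma), with every BCS mouse below every WT mouse. Kit differed by -0.01 and Cd93 by 0.29 on the log2 scale (BCS minus WT, adjusted p = 0.983 and 0.322, limma), and all of these were above the array median on every array.

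Klk1 encodes the true tissue kallikrein, the enzyme that releases kinin peptides from kininogen; the kinins then act on the receptors B1 and B2 in vessels, kidney and inflamed tissue. In rodents the gene was duplicated into a family of Klk1b genes, whose best known site of expression is the submandibular gland. Klk1b3 encodes the gamma subunit of the nerve growth factor complex, Klk1b22 and Klk1b9 encode epidermal growth factor-binding proteins, and Klk8 encodes neuropsin, a protease of hippocampus and skin. In the reference gene order these genes lie in 1 cluster of 37 kallikrein genes and pseudogenes on chromosome 7, of which 26 are protein-coding, with Klk8 towards one end and Klk1 as the last gene at the other.

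The Klk1 and Klk1b genes are close copies of one another, in their promoters too. RefSeq promoter windows of the GRCm38.p6 build, from 250 bases before to 50 bases after the annotated start, were matched by symbol for 8 of the 8 genes and for Klk1b9. The 150 bases just upstream of the start are shown for the genes whose probe sets were above the array median, on the plus strand and 5′ to 3′, with CAGGTG and TTTAAA in capitals where they occur.
Klk1, chr7:44225210-44225359: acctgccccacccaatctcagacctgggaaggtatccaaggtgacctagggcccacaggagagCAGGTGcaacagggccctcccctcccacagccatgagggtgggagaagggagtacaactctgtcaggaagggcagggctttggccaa
Klk1b27, chr7:44052140-44052289: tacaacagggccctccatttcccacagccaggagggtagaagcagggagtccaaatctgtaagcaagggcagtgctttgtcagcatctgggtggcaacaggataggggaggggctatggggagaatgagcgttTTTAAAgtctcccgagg
Klk1b22, chr7:44112523-44112672: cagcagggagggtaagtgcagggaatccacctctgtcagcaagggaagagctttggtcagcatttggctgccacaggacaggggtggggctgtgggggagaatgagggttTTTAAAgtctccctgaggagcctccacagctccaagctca
Klk1b9, chr7:43975911-43976060: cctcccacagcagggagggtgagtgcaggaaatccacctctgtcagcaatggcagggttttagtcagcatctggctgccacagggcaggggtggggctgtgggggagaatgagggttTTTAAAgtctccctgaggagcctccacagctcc
Klk8, chr7:43797427-43797576: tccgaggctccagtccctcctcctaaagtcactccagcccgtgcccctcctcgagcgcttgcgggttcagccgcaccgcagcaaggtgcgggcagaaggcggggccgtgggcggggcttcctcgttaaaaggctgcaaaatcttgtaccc

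Aligned over the full windows, Klk1 and Klk1b27 were 80.3% identical over 228 columns, and the start annotated for Klk1 lay 67 bases away from that of Klk1b27 in the alignment. Klk1b22 and Klk1b9, the pair behind the shared probe set, were 90.4% identical over 280 columns. Over the 28 pairs of Klk1 and Klk1b windows the identity ran from 78.9% to 90.4%. Klk8 aligned with these windows over no more than 48 columns, so its promoter is not a copy of the others.

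The octamer ATGCAAAT, searched on both strands, was in none of the windows of the 8 genes, and it occurs in 1.74% of the 32851 promoter windows of the reference. Allowing 1 mismatch, it was again in none of the 8, against 18.6% of all windows. The E-box CAGGTG, the kind of site bound by E proteins, was in 7 of the 8 windows, all but Klk8, against 20.2% of all windows. In Klk1 it began at position -87 and in Klk1b27 at position 40, counted from 0 at the annotated start. The AT-rich element TTTAAA was in 6 of the 8 windows, those of every Klk1b gene and not those of Klk1 and Klk8, against 13.2% of all windows. In Klk1b27 it began at position -17. The annotated starts of Klk1 and Klk1b27 lie 67 bases apart in the alignment, so the matching stretch of Klk1 falls at or past its window's end. Whether Klk1 has the element there was not tested. The E-box CAGCTG was in 1 of the 8 windows (16.3% of all) and the Runx motif TGTGGT in 4 of the 8 (16.8% of all). No motif overlapped another in the printed stretches. Since the Klk1 and Klk1b windows are copies of one another, these counts are not counts of separate promoters.

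The values below are GCRMA intensities, a background-corrected and normalized brightness on a linear scale, with an array median of 20 on each of the 6 arrays. Differences are BCS minus WT in log2 of the intensity plus 1, with the standard error (SE) of the fit across all probe sets. Intensities of different probe sets depend on their probes and are not compared with each other. Precision is limited by how few arrays there are, and near the median an intensity carries little signal over background.

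On its 2 bright probe sets, Klk1 was high in WT EPLMs and near background in BCS EPLMs. The brighter one, 1415837_at, read 2218, 7463 and 4009 in WT 1, 2 and 3 and 18, 17.9 and 14.2 in BCS 1, 2 and 3. The genotypes did not overlap, and all 3 BCS values were below the array median. Mean intensities were 4563 ± 2666 for WT and 16.7 ± 2.17 for BCS (SD, n = 3 each), a difference of -7.84 (SE 0.38). The second Klk1 probe set, 1448107_x_at, followed the first: it read 2255, 6776 and 4057 in WT and 13.8, 20.5 and 13 in BCS, a difference of -7.91 (SE 0.37). With BCS values this close to background, the size of both differences depends on the offset added before log2, and it was -6.96 and -6.98 with an offset of 16 in place of 1.

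Klk1b27, a Klk1b gene described in testis and salivary gland, showed the same contrast with 1 exception among the BCS mice. Its probe set 1421587_at read 2352, 6048 and 3598 in WT 1, 2 and 3 and 11.3, 372 and 12.2 in BCS 1, 2 and 3. BCS 1 and BCS 3 were at background, and BCS 2 lay above background while remaining 6.33-fold below the lowest WT mouse. Mean intensities were 3999 ± 1881 for WT and 132 ± 208 for BCS (SD, n = 3 each), and the difference was -6.56 (SE 1.13). BCS 2 widened the error: without that mouse the difference was -8.18 (SE 0.36), and without BCS 1 or BCS 3 it was -5.72 or -5.78. The same mouse did not stand apart in Klk1, where it read 17.9 and 20.5 on the bright probe sets.

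The probe set annotated to both Klk1b9 and Klk1b22, 1425182_x_at, is the only measurement that touches Klk1b22. It read 399, 1411 and 721 in WT 1, 2 and 3 and 66.8, 31.8 and 100 in BCS 1, 2 and 3. The genotypes did not overlap, the lowest WT mouse being 3.98 times the highest BCS mouse, and all 6 values were above the array median. Mean intensities were 844 ± 517 for WT and 66.2 ± 34.2 for BCS (SD, n = 3 each), a difference of -3.61 (SE 0.50). The signal cannot be assigned to either gene. BCS 2, the BCS mouse with the highest Klk1b27 value, had the lowest value here.

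The remaining pair of Klk1 probe sets did not follow the bright ones to the same degree. On 1455977_x_at the intensities were 153, 1051 and 251 in WT and 25.3, 33.2 and 31.1 in BCS, with no overlap and a difference of -3.49 (SE 0.58). WT 2 weighed heavily in it, and without that mouse the difference was -2.68 (SE 0.26). On 1460050_x_at the intensities were 145, 138 and 191 in WT and 182, 255 and 234 in BCS, which overlapped and differed in the other direction, by 0.50 (SE 0.21). Thus 3 of the 4 Klk1 probe sets read lower in every BCS mouse and the fourth did not.

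The design of the probe sets limits how far a signal belongs to 1 gene. The suffix _x_at is the manufacturer's mark for a probe set with probes that match further transcripts, and it is carried by 1448107_x_at, 1455977_x_at, 1460050_x_at, 1425182_x_at and 1 of the Klk1b5 probe sets. The Klk1 probe set 1415837_at and the Klk1b27 probe set 1421587_at do not carry it. Probe sequences were not analysed here, so cross-hybridization among Klk1, Klk1b27 and the Klk1b9 and Klk1b22 pair was not tested. The profiles themselves were set side by side by the root mean square distance of log2 values over the 6 arrays, each centred on its own mean. From 1415837_at this distance was 0.17 to 1448107_x_at, 1.70 to Klk1b27, 2.19 to the shared probe set and 2.22 to 1455977_x_at, and it was 3.73 to 4.21 to the other 6 probe sets of the 8 genes. The distance takes in the genotype difference on which the genes were picked, so it cannot tell cross-hybridization from separate falls.

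Klk8, the neuropsin gene, was detected at the same order of intensity in both genotypes. It read 302, 306 and 396 in WT and 233, 368 and 301 in BCS. The groups overlapped, with a difference of -0.17 (SE 0.21), and all 6 values were above the array median.

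Klk1b1, Klk1b5 and Klk1b11 were at background. Their 4 probe sets ranged from 8.73 to 15.7 over all arrays, below the array median everywhere, and their differences ran from -0.48 to -0.05. On 1 of the 4, Klk1b5 1419010_x_at, the BCS values of 10.1, 10.9 and 9.67 all lay under the WT values of 15.5, 12.7 and 15.7. The second Klk1b5 probe set, 1449313_at, overlapped. Levels in this range cannot be told from no expression on this platform.

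**Figure D1:**
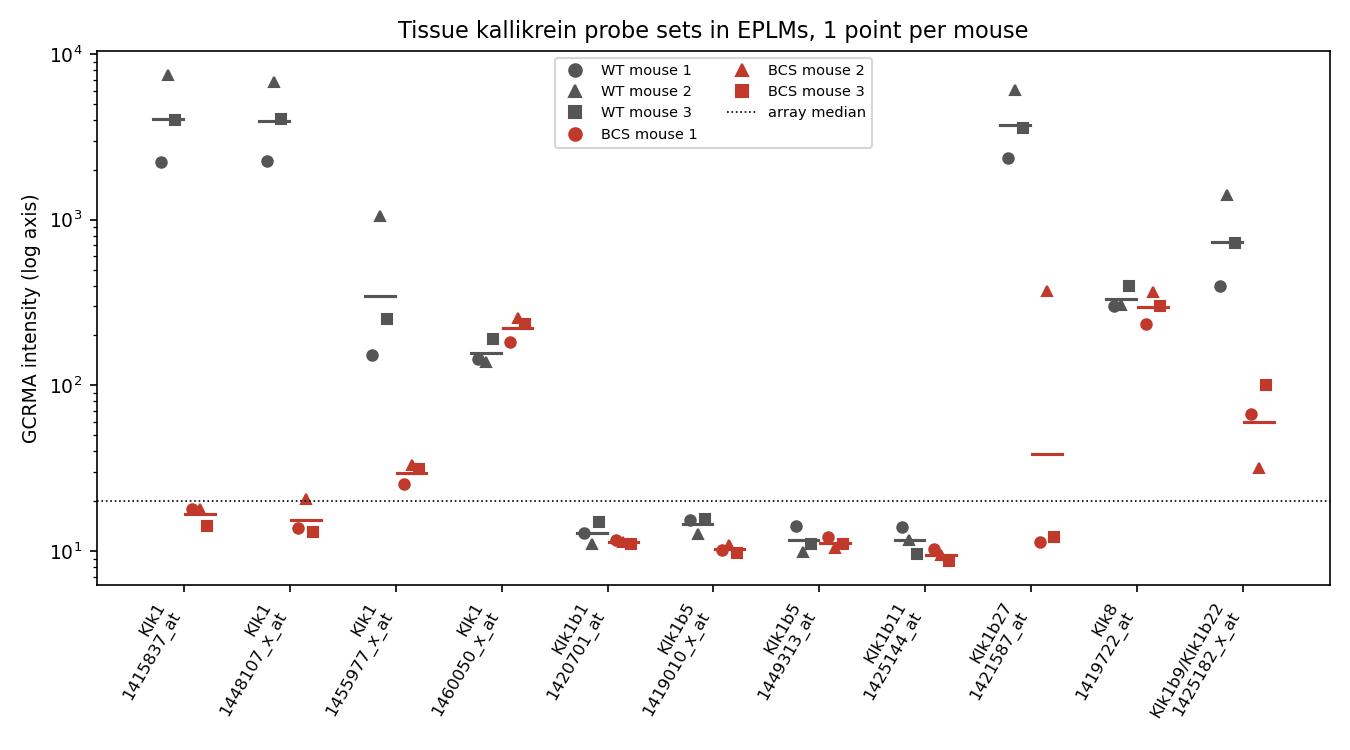
Each point is the GCRMA intensity of 1 mouse on a log axis, for the 10 probe sets of the tissue kallikrein genes and the probe set shared by Klk1b9 and Klk1b22; bars are group means of log2 values and the dotted line is the array median of 20. On the 2 bright Klk1 probe sets the WT mice (grey) read 2218 to 7463 and the BCS mice (red) 13 to 20.5, close to the median, the Klk1b27 value of 372 in BCS 2 stands between the groups, and Klk8 overlaps.

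Over the 10 probe sets, 5 had every BCS mouse below every WT mouse, where 11.2% of all probe sets on the array did, and 4 of these also had a mean difference of -1 or less, where 1.84% of all did. The other 5 overlapped and 0 had every BCS mouse above every WT mouse, which 12.6% of all probe sets had. The median difference of the 10 was -0.38, beside 0.01 over all probe sets. The genes were picked on this contrast, and nothing is read from these shares.

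The WT mice differed among themselves in the same way in the kallikrein probe sets with much higher WT than BCS values. WT 2 was the highest and WT 1 the lowest in 3 Klk1 probe sets, Klk1b27 and the shared probe set. WT 2 exceeded WT 1 by 3.36-fold on 1415837_at, 3-fold on 1448107_x_at, 6.85-fold on 1455977_x_at, 2.57-fold on Klk1b27 and 3.54-fold on the shared probe set. Among the 12298 probe sets above the upper quartile on some array, 17.9% had this order of the WT mice and 1.69% had WT 2 at least 2-fold above WT 1, with a median ratio of 0.996. Klk8 did not share it, with 302 in WT 1, 306 in WT 2 and 396 in WT 3.

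Markers of other blood cells also varied from mouse to mouse. The summed intensity of 10 NK cell markers was 8278, 14986 and 11103 in WT 1, 2 and 3 and 1485, 4288 and 4193 in BCS 1, 2 and 3, with WT 2 the highest and every BCS mouse below every WT mouse. Klrd1 carried most of this sum in every mouse except BCS 2, where it read 1306 and Gzma 2148. Without Klrd1 the other 9 summed to 1377, 6876 and 3160 in WT and 398, 2982 and 1763 in BCS, which overlapped. Taken singly, 8 of the 10 markers overlapped. Of all probe sets, 11.2% had every BCS mouse below every WT mouse, 12.6% had every BCS mouse above, and the rest overlapped. In 8 of the 10 NK markers the WT mice had the same order as in Klk1. The summed intensity of 14 granulocyte and monocyte markers was 30286, 112551 and 31177 in WT and 11220, 76193 and 50771 in BCS, with WT 2 and BCS 2 standing above the other mice of their genotype and the genotypes overlapping. S100a8 was the brightest of the 14 in every mouse, at 8567, 34295 and 12138 in WT and 4295, 26694 and 19299 in BCS. For 10 mast cell and basophil markers the sum was 174, 501 and 243 in WT and 251, 646 and 536 in BCS, with 5 of the 10 below the array median on every array. The WT order of Klk1 was also found in 6 of the 13 granulocyte and monocyte markers above the array median on some array. Among the mast cell and basophil markers above it on some array, 4 of 5 had that order. Among single genes, chosen after their values were seen, Gzma, a granule protease of NK and cytotoxic T cells, read 885, 4690 and 2296 in WT and 154, 2148 and 1152 in BCS. S100a9, a calcium-binding protein of neutrophils, read 3677, 21503 and 4833 in WT and 1453, 12951 and 8110 in BCS. Both genes were above the array median in every mouse, and their genotypes overlapped.

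Plasmacytoid dendritic cell markers differed between the genotypes. Of 17 measured markers, 13 fell and 0 rose in BCS EPLMs (adjusted p under 0.05, limma), where 3.25% of all probe sets fell and 2.24% rose. The unmoderated test named in the study's methods, adjusted in the same way, called 3 of the 17, and 267 probe sets on the whole array. The largest falls were those of Pacsin1, Klra17 and Ccr9, with differences of -4.44 (SE 0.24), -4.41 (SE 0.45) and -3.29 (SE 0.25). The 4 that did not pass were Spib, Tlr7, Tlr9 and Ly6d. Spib differed by 0.25, with every BCS mouse above every WT mouse (12.6% of all probe sets did). Tlr7 differed by -0.73, with every BCS mouse below every WT mouse (11.2% of all did), and Tlr9 (-0.18) and Ly6d (-0.07) overlapped. Siglech, which defines these cells, read 2363, 2754 and 2825 in WT and 964, 682 and 873 in BCS. The summed intensity of the list was 104347 to 118493 in WT and 51436 to 68542 in BCS, and none of the 17 was below the median on every array. Irf8 was the brightest gene in this sum in every mouse, at 39993, 38751 and 39670 in WT and 29268, 23426 and 25736 in BCS. The WT order of Klk1 was found in 2 of the 17. In BCS mice 16 of the 17 were above the array median on every array, some of them narrowly, such as Pacsin1 at 29.5 to 37.9.

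**Figure D2:**
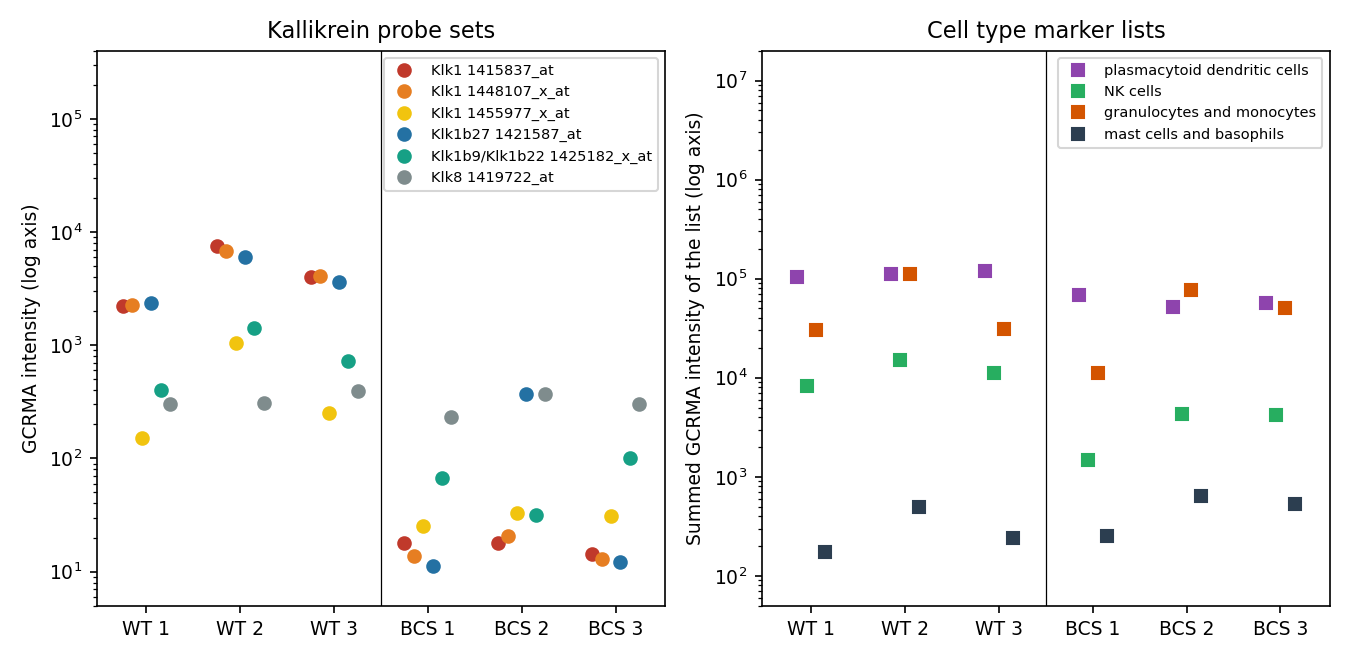
Points are single arrays, WT 1 to 3 left and BCS 1 to 3 right of the line, on log axes; the left panel gives the GCRMA intensity of 6 kallikrein probe sets and the right panel the summed intensity of 4 marker lists. Klk1, Klk1b27 and the shared probe set peak in WT 2, as do the NK cell and the granulocyte and monocyte sums in WT, while the plasmacytoid dendritic cell sum is highest in WT 3; heights of different probe sets or lists are not comparable.

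The other marker lists held fewer calls, to be read beside the 3.25% of all probe sets that fell and the 2.24% that rose. Of the NK cell markers, 2 of 10 fell, Klrd1 by 2.34 and Klrk1 by 1.31 on the log2 scale, and of the granulocyte and monocyte markers 1 of 14 fell, Csf1r (-2.40). Of 11 markers of committed B cells 6 rose, led by Igll1, Cd79b and Pax5 (1.47, 1.23 and 1.12). Of 7 genes of the sorting gate and early progenitors 4 fell, led by Cd34 and Flt3 (-1.80 and -1.22). Of 7 T cell markers 1 fell, Cd8a, by 2.71. No mast cell, basophil or erythroid marker passed the limma test (0 of 10 and 0 of 8). Of the 10 and the 8, 1 and 5 had an unadjusted p under 0.05. The share of all probe sets at that unadjusted threshold is not given here, so nothing is read from these counts. The adjusted unmoderated test called 0 in either list. That test called 1 of the 11 committed B cell markers and 0 of the NK cell, granulocyte and monocyte, T cell, exocrine gland and sorting gate lists. It called only 267 probe sets on the whole array, so 0 calls in a short list say little. Of 9 markers of exocrine gland, the tissue best known for Klk1b genes, 7 were below the median on every array, their sum was 103 to 111 in WT and 124 to 162 in BCS, and 1, Krt18, rose (1.46). In sorted cells measured in bulk, fewer cells of a type and less RNA per cell cannot be told apart. The part of NK cells, granulocytes or plasmacytoid dendritic cells in the kallikrein values was not tested.

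Most of the other kallikrein genes were at background. Of the 19 other genes of the locus on the list, 14 had a probe set of their own, and 12 of these were below the array median on all arrays. None of the 14 passed the limma test in either direction (5.49% of all probe sets did). The adjusted unmoderated test also called 0 of them, and 267 probe sets on the whole array. For 1 of the 14 the unadjusted p was under 0.05, a threshold whose share over all probe sets is not given here. The one above the median on all arrays, Klk1b21 (named after its values were seen), read 23.5, 30 and 26.1 in WT and 21, 20.8 and 22.6 in BCS, a difference of -0.29 (adjusted p = 0.335, limma). A fall cannot be seen in genes that are at background in both genotypes.

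The 5 nearest measured genes on each side of the locus were Ctu1, Siglece, Ceacam18, Zfp819 and Zfp719 before Klk14, and 1700028J19Rik, 2410002F23Rik, Clec11a, Shank1 and 1700008O03Rik after Klk1. None of the 10 passed, with adjusted p from 0.0802 to 0.924 (limma). The 3 genes nearest to Klk1, 1700028J19Rik, 2410002F23Rik and Clec11a, each had every BCS mouse below every WT mouse (11.2% of all probe sets did), with differences of -0.46, -0.48 and -0.38 (adjusted p = 0.0883, 0.145 and 0.0802). Of these, only 2410002F23Rik was bright. The values of 1700028J19Rik (12.9 to 22.7) and Clec11a (14.5 to 20.6) were near or below the array median of 20, where an intensity carries little signal over background. The bright neighbors on the other side, Ctu1 and Zfp719, had adjusted p of 0.383 and 0.748. Ctu1, the nearest there, had every BCS mouse above every WT mouse (12.6% of all probe sets did), with a difference of 0.24, and Zfp719 overlapped.

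**Figure D3:**
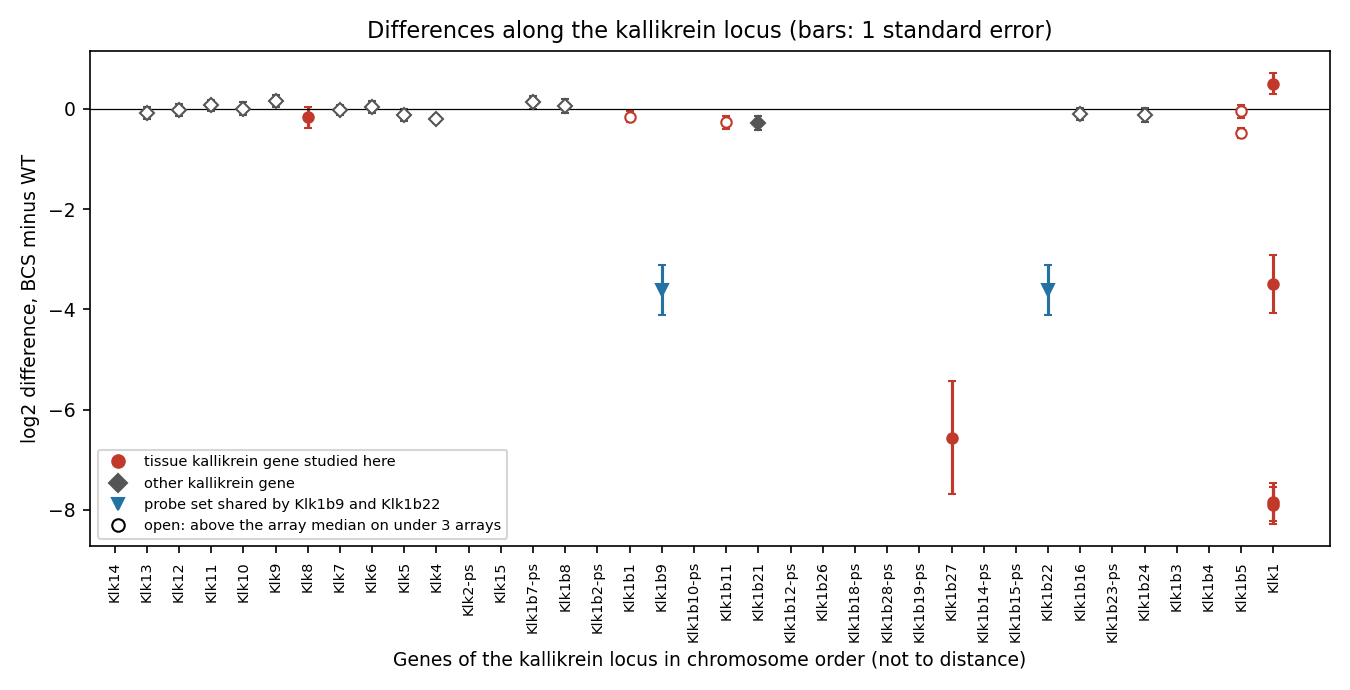
Log2 difference, BCS minus WT, for each single-symbol probe set of the Klk-named genes and for the probe set shared by Klk1b9 and Klk1b22 (drawn at both genes), with genes in chromosome order and bars of 1 SE. Klk1, Klk1b27 and the shared probe set lie between -3.49 and -7.91, the fourth Klk1 probe set is at 0.50, and the other genes drawn are within -0.48 to 0.16. Open symbols are above the array median on fewer than 3 arrays. Not drawn are Egfbp2 1421788_x_at (0.29, every BCS mouse above every WT mouse) and 1419090_x_at, shared by Klk1b26 and Egfbp2 (-0.14, overlapping). Both were close to or below the array median.

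Genes that work with kallikreins were described by lists, each gene by its brightest probe set, and 4 of 71 measured genes passed the limma test, beside the same 5.49% of all probe sets. The kinin pathway had 0 of 16 genes past the threshold (4 at an unadjusted p under 0.05, and 0 by the adjusted unmoderated test). On the whole array that test called 267 probe sets, and the share at the unadjusted threshold is not given here. Of the 16 kinin pathway genes, 11 were below the array median throughout. The kinin receptors Bdkrb1 and Bdkrb2 were among these, at 9.61 to 13.9 and 10.3 to 12.3 over all arrays, with differences of -0.16 and 0.00 (adjusted p = 0.572 and 0.995). Kng1, one of the kininogen genes, read 7.69 to 10.4. The kininogen gene and the kinin receptors that were measured were thus at background in both genotypes.

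Of 11 substrates and protease-activated receptors 2 fell and 0 rose. Fn1, which encodes fibronectin, read 141, 177 and 95.2 in WT and 32.6, 34.4 and 31.7 in BCS, a difference of -1.99 (SE 0.24, adjusted p = 0.00159). L1cam, an adhesion molecule cleaved by neuropsin, read 556, 587 and 528 in WT and 198, 179 and 299 in BCS, a difference of -1.34 (SE 0.21, adjusted p = 0.00687). Neither gene had overlapping genotypes, and the adjusted unmoderated test called neither (adjusted p = 0.0892 for Fn1 and 0.124 for L1cam). Of 9 measured inhibitors of these proteases 0 passed, 0 had an unadjusted p under 0.05 and the adjusted unmoderated test called 0 (267 probe sets on the whole array).

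Of 21 other serine proteases of blood cells 1 rose and 1 fell. Dpp7, a lysosomal dipeptidyl peptidase, read 360, 373 and 383 in WT and 99.7, 144 and 157 in BCS, a difference of -1.50 (SE 0.20, adjusted p = 0.00324). Tmprss3, a membrane-bound serine protease, read 307, 318 and 163 in WT and 739, 570 and 624 in BCS, a difference of 1.34 (SE 0.26, adjusted p = 0.0192). The call of Tmprss3 was lost when any of the BCS mice was left out, with adjusted p of 0.0515 to 0.0636 (limma). The adjusted unmoderated test called neither Dpp7 (adjusted p = 0.0902) nor Tmprss3 (adjusted p = 0.199).

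**Figure D4:**
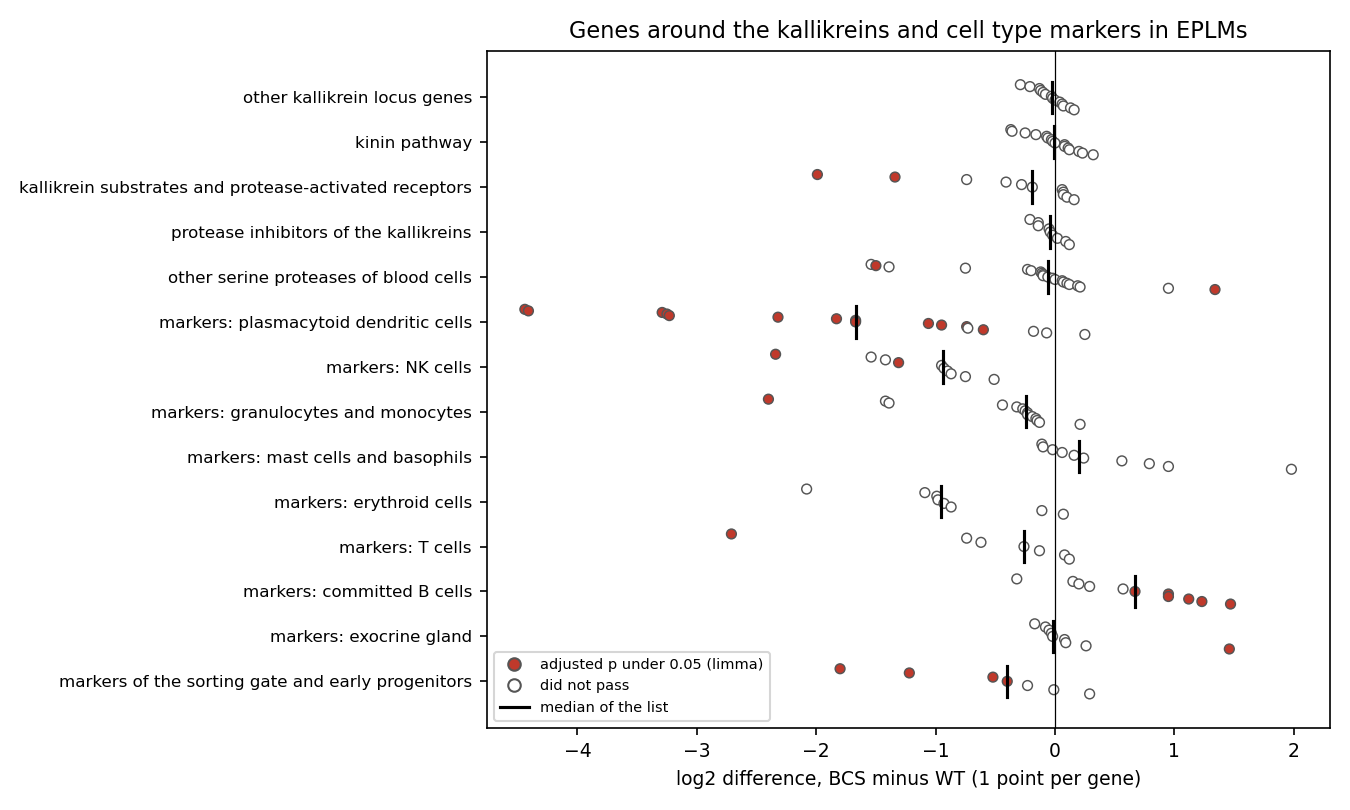
Each point is the log2 difference, BCS minus WT, of 1 gene by its brightest probe set, in the 5 lists of genes around the kallikreins and the 9 marker lists; red points passed limma at an adjusted p under 0.05 and black bars are list medians. The kinin pathway and the other kallikrein genes stay near 0, while plasmacytoid dendritic cell markers have a median of -1.67 and committed B cell markers one of 0.67.

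The genes whose profile over the 6 arrays was most like that of Klk1 1415837_at were ranked by the same root mean square distance among 11078 probe sets. In order they were Sdc1 (1.15), Fos (1.51), Plekhh1 (1.61), Ccr9 (1.65), Klk1b27 (1.70) and Strip2 (1.72). Sdc1, the gene of syndecan-1, read 2486, 1562 and 2687 in WT and 33.3, 33.7 and 29.7 in BCS, so it was flat across BCS mice like Klk1 and had its lowest WT value in WT 2, where Klk1 had its highest. Fos, a subunit of the AP-1 factor, read 5931, 11892 and 11745 in WT and 446, 225 and 293 in BCS, with WT 1 lowest as in Klk1. Plekhh1 and Strip2 read 321 to 522 and 949 to 1390 in WT and 11.6 to 13.9 and 33.1 to 63.7 in BCS. Ccr9, the receptor of the chemokine Ccl25, read 1962, 2670 and 3051 in WT and 163, 87.1 and 60.8 in BCS on probe set 1421920_a_at, which is not the one used in the marker list. These are the nearest profiles by a rule that any gene with a large fall in BCS mice can meet.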

How the data were processed

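RNA of sorted EPLMs of 3 WT and 3 BCS mice was measured on Mouse 430v2 GeneChips, with each array holding RNA of 1 mouse. The labels state labeling of 1 cycle and the methods a kit of 2 cycles. The authors deposited GCRMA intensities on a linear scale (version not given in the sources used here), for 45037 probe sets and 64 control features, which were left out. Large preB columns were not used, since their values do not follow the row names. Log2 of the intensity plus 1 was fitted with limma 3.58.1 in R 4.3.3 (lmFit, eBayes with trend, no covariates), with Benjamini-Hochberg adjustment over all probe sets. The fit was tested on simulated data. Of the probe sets, 34945 have 1 symbol, 932 several and 9160 none. Promoter windows were compared with Biopython in Python. The genes and lists were chosen with earlier results of these data known. Named genes were all probe sets of the 8 genes, the genes with the largest change of those past the threshold (up to 4 per pathway list, up to 3 per marker list), Bdkrb1 and Bdkrb2, the 6 nearest profiles, the 5 neighbors on each side, Pou2af1, and others where said. Some items are not reported here. Same-numbered WT and BCS mice are not stated to be paired. Alternatives were other offsets, a floor, other normalizations, robust variances, testing bright probe sets alone, the methods' t-test, medians, the most variable probe set per gene, the replicate number as a block and leaving out arrays.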

Additional observations from a re-analysis of the deposited data

How the results depend on the processing

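Each difference of the bright kallikrein probe sets kept its direction in every setting run on it: 1415837_at lay between -8.28 and -6.96, 1448107_x_at between -8.32 and -6.98, 1455977_x_at between -4.07 and -2.68, Klk1b27 between -8.18 and -5.72 and the shared probe set between -4.05 and -2.70. The number of member probe sets lower in every BCS mouse by -1 or less was 4 in each of these settings, those without 1 array included. limma called 2472 probe sets (1465 lower and 1007 higher in BCS). Leaving out 1 array gave 1401 to 2241 (875 to 1315 lower, 517 to 926 higher), and 3 to 4 pathway genes; the count was 1430 without WT 3, 1401 without BCS 2 and 1591 without BCS 3, with fewer arrays in each fit. The methods' t-test called 864 probe sets at their threshold (568 lower, 296 higher), 267 after adjustment (153 lower, 114 higher), 0 pathway genes and 3 plasmacytoid dendritic cell markers; the cause was not tested. Leaving out WT 2 and BCS 2 together, chosen after seeing the data, gave 1008 calls (588 lower, 420 higher) and 2 pathway genes, with 4 arrays in the fit, and -7.83 for Klk1b27. Same-numbered mice had correlated deviations of 0.035, 0.115 and 0.115 over 12298 probe sets, and 4 of 6 arrays correlated best with their own number. These values do not settle whether the numbers mark pairs. The numbers were not taken as pairs because pairing is not stated. With the replicate number as a block the fit called 1920 probe sets (1179 lower, 741 higher) and 6 pathway genes. The SE of the Klk1b27 difference was 0.7 with the block and 1.13 without it. In 64 refits of Fn1, L1cam, Dpp7 and Tmprss3, 55 kept direction and call, 9 lost the call and 0 reversed. Signal over background limits Klk1b1, Klk1b5 and Klk1b11. A floor at the array median sets their differences to 0 by construction, since all their values lie below it.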
